A study of Mus musculus with 9 samples.

Results

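The integrated stress response and the charging of tRNA meet in 1 transcription factor, ATF4, and the 41 genes described here were chosen by symbol for their place around it. They comprise 7 stress response factors, 5 genes of eIF2α signalling and translation control, 4 genes of amino acid synthesis and other targets, 7 amino acid transporters and 18 cytosolic aminoacyl-tRNA synthetases. Each of the 41 symbols had a row among the 38940 genes of the deposited table. Of these, 40 entered the test and 1, Vldlr, was below the level tested.

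Kinases such as PERK (Eif2ak3) and GCN2 (Eif2ak4) phosphorylate the translation initiation factor eIF2α (Eif2s1) when unfolded protein builds up in the endoplasmic reticulum or amino acids run short. General translation then slows, while the ATF4 mRNA is translated more. ATF4 pairs with C/EBP proteins on composite DNA elements and raises genes that import amino acids, make them and load them onto tRNA. Cytosolic tRNA synthetases, which attach each amino acid to its tRNA, are expressed in every cell, and many of their genes are known ATF4 targets. Protein amounts and eIF2α phosphorylation were not among the measurements, so what follows concerns mRNA.

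RNA-seq was made from mouse embryonic stem cells to study the Hippo pathway co-activators YAP and TAZ, with 3 libraries in each of 3 groups. Control cells had floxed, undeleted Yap and Taz. Taz KO cells had Taz deleted and Yap floxed, and double KO cells had both deleted, as the titles and descriptions give it, although the genotype entry of the double KO libraries repeats that of Taz KO. Deletion was by a piggyBac-delivered Cre-ERT2 under 500 nM 4-OHT, the active form of tamoxifen. Whether the control cells carried the transposon or received 4-OHT, and whether each genotype was 1 clone, is not stated in the labels. All cells grew without serum on fibronectin, in N2B27 containing Lif (4 ng/ml), the GSK3 inhibitor CHIR99021 (3 µM) and the MEK inhibitor PD0325901 (0.4 µM).

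The libraries held 19.1 to 24.0 M reads as recovered from the values. Yap1 averaged 18.4 ± 0.573, 18.3 ± 0.346 and 4.25 ± 0.334 FPKM in control, Taz KO and double KO (mean ± SD, n = 3), and Wwtr1, the gene of TAZ, at 12.1 ± 0.847, 10.8 ± 1.58 and 13.9 ± 0.772, a whole-gene value that does not check the loss of an exon. FPKM is the number of fragments per kilobase of transcript, scaled by depth, here on a scale set by the typical gene. The summed FPKM of 10 embryonic stem cell markers was 4814 to 5139 in control, 4009 to 4372 in Taz KO and 2400 to 2727 in double KO. Of the 10, 5 fell and 1 rose in double KO against control, where 12.9% of all tested genes fell and 12.4% rose. The marker with the highest level, and so the most weight in that sum, was Dppa5a (3261, 2575 and 1139 FPKM in the 3 groups). Pou5f1 averaged 455, 420 and 399 FPKM, Klf4 202, 186 and 123, Esrrb 130, 134 and 135, and Zfp42 72.5, 98.6 and 118. Of 8 fibroblast markers 7 had a mean under 1 FPKM and Lum, Dcn and Postn were listed at 0 throughout, with a sum of 2.15 to 4.12 in control, 1.77 to 5.89 in Taz KO and 3.17 to 10.9 in double KO. Primitive endoderm markers summed to 1.69 to 3.77 over all libraries. The 8 trophectoderm markers summed to 61.7 to 67.6 in control, 67.2 to 80.7 in Taz KO and 103 to 134 in double KO. Of these, 4 had a mean under 1 FPKM and so were not tested. In double KO 2 rose and 0 fell, where 12.4% of all tested genes rose and 12.9% fell. The highest means were those of Krt8 (25.0, 28.0 and 50.9 FPKM) and Tfap2c (24.2, 27.4 and 42.0). The 8 mesoderm and neuroectoderm markers summed to 17.3 to 34.8 in control, 15.8 to 43.0 in Taz KO and 14.9 to 50.3 in double KO. The part of these cell state markers in the results below was not tested.

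Differences were tested for 11674 genes with limma on log2(FPKM + 0.5), and a gene is called here when its Benjamini-Hochberg adjusted p over those genes was under 0.05. Members were far apart in level, which FPKM allows to be compared between genes because it is per length. In control, Asns (323 FPKM), Eif4ebp1 (263), Gars (199), Atf4 (179) and Nars (176) had the highest mean levels. Cebpb (2.67), Eif2ak3 (5.73) and Ddit3 (6.36) had the lowest of those tested. Vldlr, the receptor for very-low-density lipoprotein and a known ATF4 target, was at 0.675, 0.560 and 0.634 FPKM in the control libraries, 0.300, 0.419 and 0.151 in those of Taz KO and 0.268, 0.618 and 0.248 in those of double KO.

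Loss of both factors, by the labels, went with lower mRNA of most of these genes. In double KO against control, 26 of the 40 tested members fell and 1, Eif2ak3, rose, where 12.9% of all tested genes fell and 12.4% rose. The median log2 fold change of the members was -0.54 against -0.02 for all genes, and 35 of 40 were below 0. For 31 of 40 members every double KO library was below every control library, as was so for 23.8% of all tested genes. Amino acid synthesis genes fell in 3 of 3 cases, transporters in 6 of 7 and synthetases in 13 of 18. Among stress response factors 3 of 7 fell, and among eIF2α signalling genes 1 of 5 fell and 1 rose. In bulk RNA, fewer cells of a type and less RNA per cell cannot be told apart.

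With the replicate number as a block in the model, 32 members fell and 1 rose, where 28.1% of all tested genes fell and 24.2% rose. Of the 27 calls, 22 held in all 9 fits that left out 1 library (leave-one-out fits), and those lost in at least 1 were Aars, Eif4ebp1, Nupr1, Slc1a5 and Slc7a3. Quantile normalization lost the calls of Sars, Slc1a5, Slc3a2 and Slc7a5. Genes of chromosomes 6 and 8 were shifted in both knockout groups, with medians of all tested genes of 0.19 and 0.30 in double KO and 0.21 and 0.35 in Taz KO against control on the log2 scale. On them lie 7 members, Asns, Gars and Eif2ak3 on chromosome 6 and Slc7a5, Eif4ebp1, Aars and Kars on chromosome 8, and the part of the shift in their values was not tested.

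**Figure D1:**
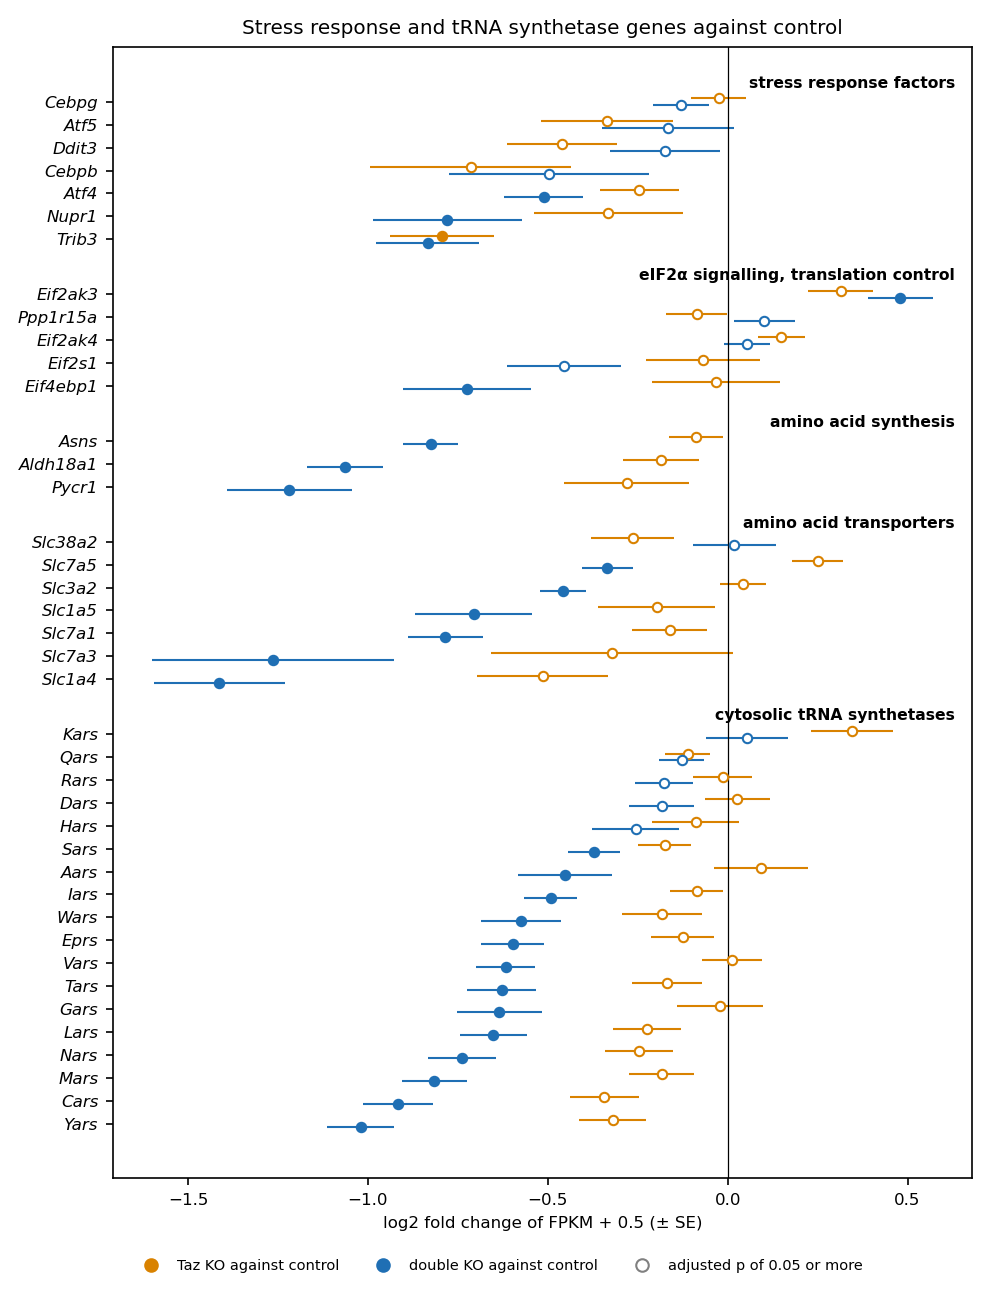
Log2 fold change of FPKM + 0.5 (horizontal axis, ± SE) of the 40 tested members in Taz KO (orange) and double KO (blue) against control, grouped by role, with filled points for an adjusted p under 0.05. Most blue points lie left of 0 and 27 are filled, while Trib3 has the single filled orange point.

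Promoter windows from RefSeq (GRCm38.p6, 250 bases before to 50 after each start) were matched for 30 of the 41 members, in 34 windows. Not matched were Slc7a3, Slc7a5, Slc1a5, Eif4ebp1, Cars, Hars, Lars, Nars, Rars, Vars and Wars. The core of the C/EBP-ATF response element, searched on both strands as TGATGNAA, was in the windows of 11 of these 30 genes, against 2.598% of the 8353 tested genes with a window and 4.51% of all 27025 genes with one. Of the 26 members that fell in double KO only 17 were matched, and 10 of those 17 held it. Of the 13 other matched members, 1 did, the untested Vldlr. Members were chosen for their place around ATF4, and many are known targets, so these shares depend on that choice. The split between the members that fell and the others was not tested. The elements are shown because they were found in 10 of those 17 promoters. Those printed are given 5′ to 3′ along the strand that reads TGATGNAA, in capitals, with 10 bases on either side, in order of the fall of the gene in double KO and with Vldlr last. In brackets are the distance of the element's most upstream base from the first transcribed base (counted as 0, negative upstream) and the coordinates and genome strand of the element in GRCm38.
Slc1a4 (-4; chr11:20332710-20332717, plus strand): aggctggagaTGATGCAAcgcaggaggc
Pycr1 (-103; chr11:120643844-120643851, minus strand): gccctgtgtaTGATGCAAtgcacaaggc
Yars (3; chr4:129189906-129189913, plus strand): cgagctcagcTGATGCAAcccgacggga
Trib3 (14; chr2:152344039-152344046, plus strand): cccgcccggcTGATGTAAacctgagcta
Asns (-23; chr6:7693225-7693232, minus strand): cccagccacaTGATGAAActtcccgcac
Nupr1 (-110; chr7:126625573-126625580, plus strand): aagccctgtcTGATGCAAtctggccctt
Gars (-30; chr6:55037971-55037978, minus strand): gcccggtgcaTGATGAAAtagcgcagcc
Tars (-15; chr15:11399666-11399673, plus strand): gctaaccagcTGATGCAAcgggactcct
Iars (7; chr13:49682137-49682144, minus strand): cgtctggaggTGATGCAAtactgacagt
Aars (9; chr8:111033851-111033858, minus strand): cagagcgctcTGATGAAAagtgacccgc
Vldlr (-200; chr19:27216820-27216827, minus strand): ctaggagcgcTGATGCAActattgctgc

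These matches are a description and not a measure of binding. The variable base of the core was C in Slc1a4, Pycr1, Yars, Nupr1, Tars, Iars and Vldlr, A in Asns, Gars and the Aars element shown, and T in Trib3. The E-box CACGTG, a palindrome known as a site of MYC and related factors that overlapped none of the elements above, was in the windows of 5 of the 30 genes (Aars, Aldh18a1, Iars, Nupr1 and Tars), against 12.6% of the tested genes with a window and 8.09% of all genes with one. The 5 are 16.7% of the 30, a share near that of the tested genes. They were among the 17 matched members that fell, a split that was not tested. No match to the whole response element core was found in the windows of the 4 matched eIF2α signalling genes.

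The 4 members with the response element core and the largest falls in double KO were Slc1a4, Pycr1, Yars and Trib3. Their promoters are shown from 150 bases before the first transcribed base to 24 after it, along the gene's strand, with the element in capitals (TTGCATCA and TTACATCA are its reverse complements).
Slc1a4 (chr11:20332689-20332863, minus strand): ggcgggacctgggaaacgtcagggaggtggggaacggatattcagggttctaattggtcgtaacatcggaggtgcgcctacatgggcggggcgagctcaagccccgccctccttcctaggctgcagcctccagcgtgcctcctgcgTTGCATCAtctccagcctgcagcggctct
Pycr1 (chr11:120643724-120643898, minus strand): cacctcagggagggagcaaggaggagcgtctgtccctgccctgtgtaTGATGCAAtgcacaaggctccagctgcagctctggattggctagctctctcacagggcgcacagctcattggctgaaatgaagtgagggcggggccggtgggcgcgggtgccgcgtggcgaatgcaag
Yars (chr4:129189753-129189927, plus strand): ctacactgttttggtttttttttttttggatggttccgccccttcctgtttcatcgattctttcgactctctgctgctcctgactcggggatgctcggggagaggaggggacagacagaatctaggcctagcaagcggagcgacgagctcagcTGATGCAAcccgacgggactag
Trib3 (chr2:152344036-152344210, minus strand): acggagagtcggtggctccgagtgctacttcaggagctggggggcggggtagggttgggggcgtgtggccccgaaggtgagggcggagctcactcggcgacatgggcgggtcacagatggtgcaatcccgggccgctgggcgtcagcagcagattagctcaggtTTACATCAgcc

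The distance to the RefSeq start differed among them. The Slc1a4 element ended just after the first transcribed base, those of Yars and Trib3 lay after it, and that of Pycr1 began 103 bases before it. Gene positions elsewhere in the text are from GENCODE, whose starts can differ. The Trib3 element lies before the GENCODE start of that gene (152344032). The Yars element lies further after its GENCODE start (129189760).

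Atf4 itself, the central factor (ENSMUSG00000042406; chromosome 15, 80255184 to 80257541 on GRCm38), was among the stress response factors that fell. Its mRNA was at 176, 165 and 195 FPKM in the control libraries, 153, 129.8 and 172 in those of Taz KO and 125, 121 and 129 in those of double KO. All 3 double KO libraries were below every control and Taz KO library, at 69.95% of the control mean (log2 fold change -0.51, SE 0.11, adjusted p = 0.0113). Taz KO libraries overlapped control (log2 fold change -0.25, SE 0.11, adjusted p = 0.402), and the replicate block brought the adjusted p to 0.0389 there.

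Trib3, an ATF4 target whose pseudokinase product feeds back on ATF4 (chromosome 2, 152337422 to 152344032), was the one member called in Taz KO as well. It stood at 15.1, 13.7 and 18.3 FPKM in the control libraries, 9.93, 7.02 and 9.70 in those of Taz KO and 8.95, 8.25 and 8.40 in those of double KO. Both knockout groups lay below control without overlap, and they overlapped each other. The fall against control was of -0.83 in double KO (SE 0.14, adjusted p = 0.00429), and of -0.79 in Taz KO (SE 0.14, adjusted p = 0.0373) on the log2 scale. The Taz KO call did not hold in 8 of the 9 leave-one-out fits, with its largest adjusted p (0.16) when control 1 was absent, and was kept without double KO 2.

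Nupr1, a small stress-induced chromatin protein, also fell in double KO. Its values were 15.9, 16.4 and 15.7 FPKM in the control libraries, 12.03, 14.3 and 11.7 in those of Taz KO and 8.11, 13.6 and 6.86 in those of double KO. Double KO 2 stood above the other double KO libraries but under all control libraries (log2 fold change -0.78, SE 0.21, adjusted p = 0.0255), and the call did not hold in 5 of the 9 leave-one-out fits (highest adjusted p = 0.0796, without double KO 1).

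The other 4 factors did not pass the test in double KO. Ddit3, which encodes the pro-apoptotic factor CHOP, was at 5.97, 6.80 and 6.31 FPKM in the control libraries, 4.57, 5.10 and 3.84 in those of Taz KO and 4.47, 6.97 and 5.54 in those of double KO. Double KO 2 was above all control libraries and the other double KO libraries below them (log2 fold change -0.17, SE 0.15, adjusted p = 0.429). Every Taz KO library was below control (log2 fold change -0.46, SE 0.15, adjusted p = 0.216, and 0.0293 with the replicate block). Atf5, a factor that like ATF4 is translated under stress, showed the same outlying library at 15.3 FPKM in double KO 2, against 9.11 and 8.55 in the other double KO libraries and 12.04, 12.004 and 11.8 in control (log2 fold change -0.17, SE 0.18, adjusted p = 0.54). Without the 3 libraries numbered 2, an alternative chosen after seeing the data, Atf5 fell in both knockout groups.

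Cebpb, a C/EBP partner of ATF4, was low throughout. It was at 2.87, 3.15 and 1.99 FPKM in the control libraries, 1.52, 1.94 and 0.904 in those of Taz KO and 1.34, 2.69 and 1.36 in those of double KO. Its log2 fold change was -0.50 in double KO (adjusted p = 0.219, or 0.0199 with replicates as a block) and -0.71 in Taz KO (0.306, and 0.0168 with the block). Cebpg, the other C/EBP partner listed, had the smallest difference of the 7, from 9.13 ± 0.516 FPKM in control to 8.31 ± 0.587 in double KO (log2 fold change -0.13, adjusted p = 0.241).

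**Figure D2:**
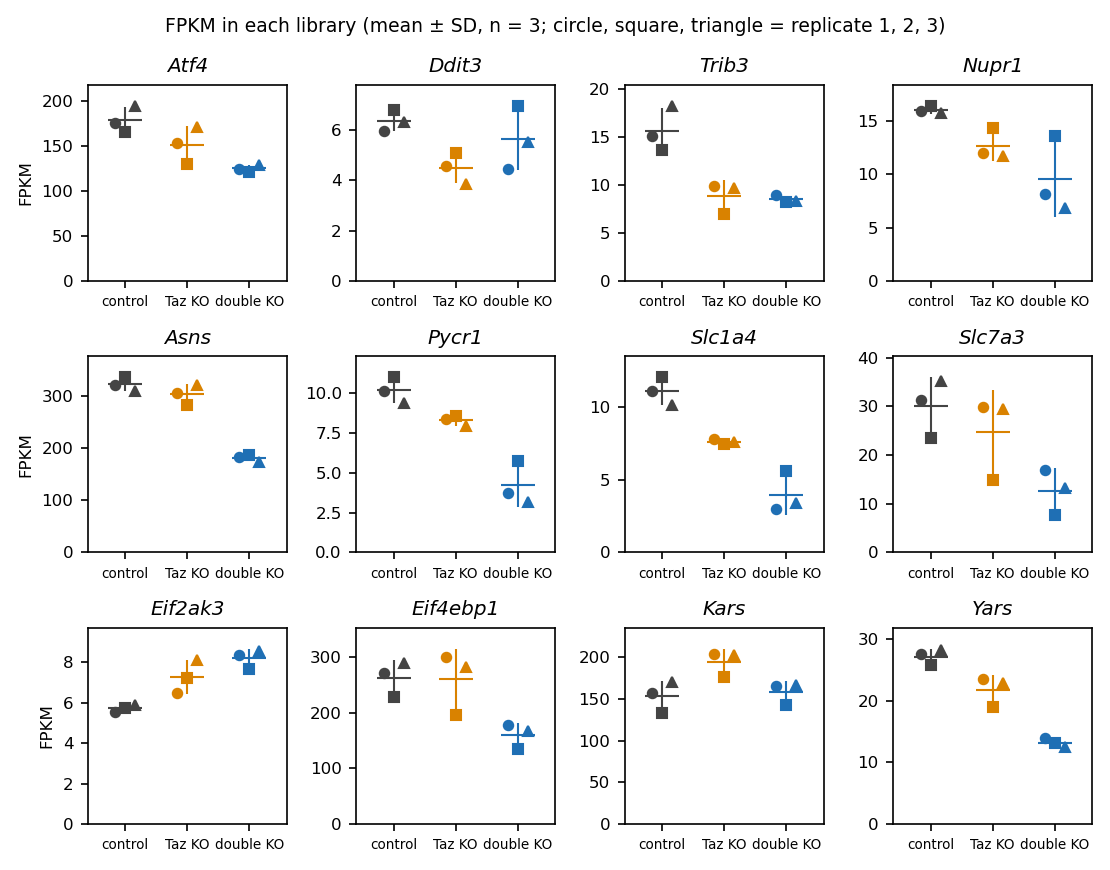
FPKM (vertical axis, from 0) of 12 members in the 9 libraries by group, with the mean and SD of 3 libraries. The means of Atf4 and Yars are lower in Taz KO than in control and lower again in double KO, Trib3 is about equally low in both knockout groups, Asns, Eif4ebp1 and Slc7a3 are low in double KO with control and Taz KO close together or overlapping, and Eif2ak3 is higher in both knockout groups.

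Of the 5 eIF2α signalling genes, 1 rose and 1 fell in double KO, where 12.4% of all tested genes rose and 12.9% fell. Eif2ak3, the kinase PERK (chromosome 6, 70844515 to 70905245), rose in double KO from 5.55, 5.73 and 5.91 FPKM to 8.36, 7.65 and 8.58 (log2 fold change 0.48, SE 0.091, adjusted p = 0.00631). Taz KO libraries overlapped those of double KO, at 6.47, 7.22 and 8.12 and above all control libraries (log2 fold change 0.31, adjusted p = 0.156, and 0.027 with the replicate block). The gene lies on chromosome 6, where the median of all tested genes was 0.19 in double KO and 0.21 in Taz KO on the log2 scale.

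Eif4ebp1, whose product 4E-BP1 holds back cap-dependent translation and which is a known ATF4 target, fell in double KO. It was at 271, 228 and 289.8 FPKM in the control libraries, 300.1, 197 and 283 in those of Taz KO and 177, 134 and 166 in those of double KO. The double KO libraries were below all others (log2 fold change -0.72, SE 0.18, adjusted p = 0.0191), on a chromosome, 8, where the median of tested genes was 0.30. The call did not hold in 3 of the 9 leave-one-out fits (highest adjusted p = 0.0701, without control 1).

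The other 3 genes of this group were not called against control. Eif2s1, eIF2α itself, was at 73.8 ± 5.37 FPKM in control against 53.9 ± 7.71 in double KO, each double KO library below each control library (log2 fold change -0.46, adjusted p = 0.0653, and 0.0012 with the replicate block). Eif2ak4, the kinase GCN2, averaged 8.23 ± 0.120, 9.19 ± 0.447 and 8.57 ± 0.184 FPKM in control, Taz KO and double KO (log2 fold change 0.055 in double KO, 95% interval -0.091 to 0.20). Ppp1r15a, the phosphatase subunit GADD34 that restores eIF2α, was at 10.9 ± 0.416, 10.3 ± 0.982 and 11.8 ± 0.668 FPKM (log2 fold change 0.10 in double KO, 95% interval -0.088 to 0.29).

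Genes of amino acid synthesis fell together in double KO. Asns (chromosome 6, 7675169 to 7693254), which makes asparagine from aspartate and is the classic ATF4 target, was at 321, 337 and 311 FPKM in the control libraries, 307, 284 and 321 in those of Taz KO and 184, 188 and 174 in those of double KO. Double KO libraries were at 56.4% of the control mean and below all others (log2 fold change -0.83, SE 0.076, adjusted p = 0.000285), while Taz KO overlapped control (log2 fold change -0.088, adjusted p = 0.793).

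Both proline synthesis genes fell further. Pycr1, the last enzyme of the route (chromosome 11, 120635712 to 120643769), was at 10.2, 11.02 and 9.40 FPKM in the control libraries, 8.38, 8.55 and 7.94 in those of Taz KO and 3.70, 5.77 and 3.16 in those of double KO. Double KO 2 was again the highest of its group, still below every Taz KO and control library (log2 fold change -1.22, SE 0.17, adjusted p = 0.00186). Aldh18a1, the first enzyme of the route, was at 35.97, 40.2 and 35.6 FPKM in the control libraries, 32.9, 30.9 and 34.3 in those of Taz KO and 15.9, 20.6 and 16.4 in those of double KO. The double KO mean was 47.4% of control (log2 fold change -1.06, SE 0.11, adjusted p = 0.000409). In Taz KO every library of both genes lay below control, with log2 fold changes of -0.28 and -0.18 (adjusted p = 0.616 and 0.567).

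Of 7 amino acid transporters 6 fell in double KO, where 12.9% of all tested genes fell. Slc1a4, the neutral amino acid exchanger ASCT1 (chromosome 11, 20302180 to 20332713), had the largest fall of all tested members. It was at 11.1, 12.1 and 10.2 FPKM in the control libraries, 7.78, 7.49 and 7.58 in those of Taz KO and 2.96, 5.57 and 3.42 in those of double KO. The 3 groups did not overlap, and double KO was at 35.8% and Taz KO at 68.5% of control (log2 fold change -1.41, SE 0.18, adjusted p = 0.00124 in double KO, and adjusted p = 0.255 in Taz KO). Slc1a5, the glutamine transporter ASCT2, was at 91.4, 100.04 and 76.2 FPKM in control against 56.1, 65.8 and 42.98 in double KO (log2 fold change -0.71, SE 0.16, adjusted p = 0.0146). Control and double KO did not overlap, and Taz KO overlapped control at 79.7, 83.1 and 69.7. The Slc1a5 call was lost without control 1 (adjusted p = 0.0572).

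Cationic amino acid transporters behaved alike in direction. Slc7a1, which imports arginine and lysine, was at 27.6, 28.97 and 27.7 FPKM in the control libraries, 25.2, 26.2 and 23.8 in those of Taz KO and 15.9, 18.8 and 13.9 in those of double KO. Double KO libraries were below all others (log2 fold change -0.78, SE 0.10, adjusted p = 0.00144). Slc7a3, its relative on the X chromosome, was at 31.2, 23.4 and 35.3 FPKM in the control libraries, 29.8, 14.8 and 29.5 in those of Taz KO and 16.9, 7.67 and 13.3 in those of double KO. Its replicates were spread widely, with the library numbered 2 lowest in every group (log2 fold change -1.26, SE 0.34, adjusted p = 0.0257). That call did not hold in 4 of the 9 leave-one-out fits (highest adjusted p = 0.0849, without control 1).

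The 2 chains of the leucine transporter LAT1 fell less. Slc7a5, the transporting chain, was at 109, 108 and 118 FPKM in the control libraries, 138, 126 and 135 in those of Taz KO and 88.4, 90.2 and 87.1 in those of double KO. Taz KO libraries were above control and double KO libraries below it (log2 fold change -0.33, SE 0.070, adjusted p = 0.00991). The Taz KO value was 0.25 on the log2 scale (adjusted p = 0.142, and 0.0215 with the replicate block), on chromosome 8, where the median of tested genes was 0.35 in Taz KO and 0.30 in double KO. Slc3a2, the heavy chain, averaged 107 ± 3.77, 110.4 ± 2.75 and 77.9 ± 1.70 FPKM in control, Taz KO and double KO (log2 fold change -0.46, SE 0.064, adjusted p = 0.00174). Slc38a2, the sodium-coupled transporter SNAT2, was the exception at 71.8, 70.6 and 75.7 FPKM in the control libraries, 64.1, 52.5 and 65.6 in those of Taz KO and 79.4, 63.6 and 78.8 in those of double KO. Control and double KO overlapped (log2 fold change 0.018, 95% interval -0.24 to 0.28), and every Taz KO library was below control (adjusted p = 0.385, and 0.0361 with the block).

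Cytosolic tRNA synthetases make up the largest group. In double KO against control 13 of 18 fell and 0 rose, where 12.9% of all tested genes fell and 12.4% rose. The log2 fold changes of the 18 had a median of -0.59 and a range from -1.02 to 0.054. With the replicate block 17 of 18 fell, all but Kars, where 28.1% of all tested genes fell. For the same 17 genes every double KO library was below every control library, as was so for 23.8% of all tested genes.

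Yars, the tyrosine enzyme (chromosome 4, 129189760 to 129219607), fell most. It was at 27.7, 25.8 and 28.2 FPKM in the control libraries, 23.5, 19.02 and 22.9 in those of Taz KO and 13.9, 13.1 and 12.5 in those of double KO. The 3 groups did not overlap (log2 fold change -1.02, SE 0.093, adjusted p = 0.000285 in double KO). Cars, the cysteine enzyme, was at 44.9, 48.1 and 44.9 FPKM in the control libraries, 37.7, 31.5 and 39.7 in those of Taz KO and 24.8, 22.5 and 25.1 in those of double KO. Its 3 groups did not overlap either (log2 fold change -0.92, SE 0.097, adjusted p = 0.000535). Mars, the methionine enzyme, was at 84.1, 83.6 and 84.9 FPKM in control against 47.9, 48.99 and 46.1 in double KO (log2 fold change -0.82, SE 0.091, adjusted p = 0.000607).

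Of the 3 synthetases with the highest control level, Gars and Nars fell and Kars did not. Gars, the glycine enzyme, was at 199, 194 and 205 FPKM in the control libraries, 207, 164 and 223 in those of Taz KO and 133, 116 and 137 in those of double KO. Double KO was at 64.5% of control (log2 fold change -0.63, SE 0.12, adjusted p = 0.00622), and Taz KO straddled control. Nars, the asparagine enzyme, was at 174, 173 and 183 FPKM in control, at 151, 129.8 and 167 in Taz KO and at 105, 107 and 105 in double KO (log2 fold change -0.74, SE 0.094, adjusted p = 0.0012).

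The remaining synthetases that fell in double KO were at 63.4% to 77.2% of control. They were Lars (-0.65 on the log2 scale, adjusted p = 0.00189), Tars (-0.63, 0.00261), Vars (-0.62, 0.00144) and Eprs (-0.60, 0.00213), the enzymes of leucine, threonine, valine, and of glutamate with proline. Wars (-0.57, 0.00692), Iars (-0.49, 0.00241), Aars (-0.45, 0.0351) and Sars (-0.37, 0.00749), the enzymes of tryptophan, isoleucine, alanine and serine, completed the list. The Aars call did not hold in 6 of the 9 leave-one-out fits (highest adjusted p = 0.115, without control 3).

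Not called were 5 synthetases. Hars, Dars, Rars and Qars, the enzymes of histidine, aspartate, arginine and glutamine, had log2 fold changes of -0.26, -0.18, -0.18 and -0.13 (adjusted p = 0.149, 0.168, 0.141 and 0.167). With the replicate block their adjusted p-values were 0.00798, 0.014, 0.0178 and 0.033. Kars, the lysine enzyme (chromosome 8, 111993443 to 112011323), stood apart at 157, 133 and 169.7 FPKM in the control libraries, 204, 176 and 203 in those of Taz KO and 166, 143 and 167 in those of double KO. Control and double KO overlapped (log2 fold change 0.054, SE 0.11, adjusted p = 0.757), and every Taz KO library was above every control library (log2 fold change 0.35, adjusted p = 0.214, and 0.0045 with the replicate block). Kars lies on chromosome 8, and the median of tested genes there was 0.35 in Taz KO and 0.30 in double KO.

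**Figure D3:**
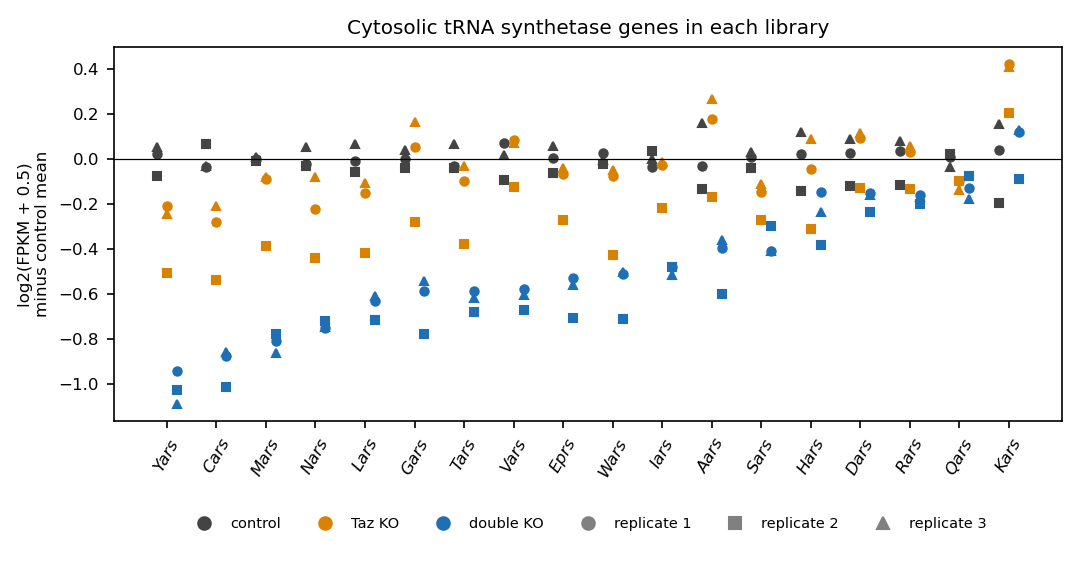
Log2(FPKM + 0.5) of each cytosolic synthetase in the 9 libraries (vertical axis) minus its control mean, ordered by the change in double KO, with colours for groups and shapes for replicate numbers. Double KO points lie below control points for all genes but Kars, and the squares of replicate 2 are often the lowest of their colour.

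Libraries with the number 2 were lower than the others across synthetases. That library was the lowest of 3 for 15 of 18 synthetases in control, 17 of 18 in Taz KO and 12 of 18 in double KO, where it was so for 44.8%, 49.3% and 53.0% of all tested genes. The median over the 18 genes, relative to the control mean on the log2 scale, was -0.05 in control 2 against 0.0062 and 0.053 in the other control libraries, -0.28 in Taz KO 2 against -0.07 and -0.035, and -0.68 in double KO 2 against -0.52 and -0.53. All 3 double KO medians were below all others. Stress response factors showed the opposite in double KO, with 5 of 7 highest in double KO 2, as were 34.3% of all tested genes. Their medians were -0.51, -0.067 and -0.46 in double KO 1, 2 and 3. The library numbered 2 was also highest for 4 of 7 factors in Taz KO and 3 of 7 in control. It was so for 37.2% and 35.0% of all tested genes. Without the 3 libraries numbered 2, 31 members fell and 1 rose in double KO against control, where 22.5% of all tested genes fell and 19.4% rose.

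Of the 18 enzymes 8 (Dars, Eprs, Iars, Kars, Lars, Mars, Qars and Rars) are known to sit in the cytosolic multi-synthetase complex. That division was made after the values were seen and has no test. In double KO against control 4 of these 8 fell and 9 of the 10 others did, where 12.9% of all tested genes fell. The median log2 fold changes of the 8 and the 10 were -0.34 and -0.62. With the replicate block 7 of 8 and 10 of 10 fell, where 28.1% of all tested genes did.

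Taz KO against control asks what went with deleting Taz while Yap was kept. Of 40 tested members 1 (Trib3) fell and 0 rose by limma, where 0.565% of all tested genes fell and 0.72% rose, and 14 members had an unadjusted p under 0.05, as did 12.8% of all tested genes. With limma-voom on recovered reads 0 rose as well. The members' median log2 fold change was -0.17 (0.0057 for all genes), and 32 of 40 were below 0. In 18 members every Taz KO library was below every control library, as in 7.84% of all tested genes. They included Slc1a4, Ddit3, Nupr1, Atf5, Cebpb, Yars, Cars, Mars, Nars and Lars. This comparison and that of double KO share the control libraries.

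With the replicate block 8 members fell in Taz KO and 3 rose, where 4.05% of all tested genes fell and 7.78% rose. The falls were those of Atf4, Trib3, Cebpb, Ddit3 and Slc38a2, and of the synthetases Yars (log2 fold change -0.32, adjusted p = 0.158 without the block and 0.022 with it), Cars (-0.34, 0.148 and 0.0303) and Lars (-0.22, 0.347 and 0.0394). Each rise (Eif2ak3, Kars and Slc7a5) was of a gene on chromosome 6 or 8. Without the 3 libraries numbered 2, 2 members (Atf5 and Trib3) fell in Taz KO and 1 (Kars) rose, where 1.2% of all tested genes fell and 2.42% rose.

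Double KO against Taz KO, which sets the loss of Yap apart by the labels, gave 20 falls and 0 rises among the 40 members by limma, where 7.45% of all tested genes fell and 6.42% rose. Limma-voom gave 20 falls and 0 rises too, and 28 members had an unadjusted p under 0.05, as did 30.4% of all tested genes. The median log2 fold change was -0.44 (-0.04 for all genes). Of 18 synthetases 12 fell, with Yars at -0.70, Mars at -0.63, Vars at -0.63 and Gars at -0.61 on the log2 scale (adjusted p = 0.0037, 0.00469, 0.00342 and 0.0138). Also called were Cars, Nars, Lars, Tars, Eprs, Wars, Iars and Aars. Amino acid synthesis genes fell in 3 of 3 cases, with Asns at -0.74, Aldh18a1 at -0.88 and Pycr1 at -0.94 (adjusted p = 0.00138, 0.00237 and 0.0116). Of the transporters Slc1a4 (-0.90), Slc7a1 (-0.62), Slc7a5 (-0.58) and Slc3a2 (-0.50) fell, as did Eif4ebp1 (-0.69).

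None of the 7 stress response factors was called between the knockout groups by limma, and 1 had an unadjusted p under 0.05. Trib3 differed by -0.041 on the log2 scale (95% interval -0.37 to 0.29), Atf4 by -0.27 (adjusted p = 0.142, and 0.0103 with the replicate block), Nupr1 by -0.45 (0.183, and 0.0391 with the block). With the block Slc7a3 (-0.94, 0.0966 without the block and 0.00122 with it), Slc1a5 (-0.51, 0.071 and 0.00113), Eif2s1 (-0.39, 0.137 and 0.00388), Kars (-0.29, 0.123 and 0.00247), Sars (-0.20, 0.109 and 0.0311), Dars (-0.21, 0.156 and 0.0103) and Rars (-0.16, 0.215 and 0.0304) were called lower as well, each value being the log2 fold change and the 2 adjusted p-values. In that fit 29 members fell and 1, Slc38a2, rose (0.28 on the log2 scale, adjusted p = 0.138 without the block and 0.00981 with it), where 25.6% of all tested genes fell and 16.8% rose. The 20 falls became 9 without Taz KO 1, 11 without Taz KO 3 and 13 without double KO 3, and 9 of the 20 calls held in all 9 such fits. Without the libraries numbered 2, 29 members fell and 1 (Slc38a2) rose, where 22.1% of all tested genes fell and 14.5% rose. Of all calls in this comparison 46.3% were higher in double KO, and 58.4% when values were rescaled to library totals.

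Related genes that are no members were listed for comparison. The 17 mitochondrial tRNA synthetases listed are those with nuclear genes of their own. Of these, 3 fell in double KO against control, where 12.9% of all tested genes fell. Their median log2 fold change was -0.13 beside the -0.59 of the cytosolic list, a difference between lists that was not tested. The falls included those of Tars2 (-0.27, adjusted p = 0.0255) and Rars2 (-0.26, 0.0314), and Aars2 was at -0.30 (0.0668, and 0.00272 with the replicate block). With the block 8 of 17 fell, where 28.1% of all tested genes did. The calls of Tars2 and Rars2 were lost in 4 and 6 of the 9 leave-one-out fits (highest adjusted p = 0.102 without control 1, and 0.103 without double KO 3). Of 7 other genes of tRNA charging 3 fell. They were Farsb, the β chain of the phenylalanine enzyme (-0.52, 0.00264), and the complex scaffolds Eef1e1 (-0.50, 0.0153) and Aimp2 (-0.45, 0.0309), while Aimp1 was at -0.13 (0.343). Farsa, the gene of the other phenylalanine chain, was at 0.14 (0.521). It lies on chromosome 8 and is named after its value was seen. The calls of Eef1e1 and Aimp2 were lost in 2 and 5 of these fits (highest adjusted p = 0.0593 without control 1, and 0.103 without control 1).

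Other regulators and targets of the stress response were listed as well. Of 28 genes 23 were tested, and 12 fell and 0 rose in double KO against control (0 rose also by limma-voom). Of all tested genes 12.9% fell and 12.4% rose. The median log2 fold change of the 23 genes was -0.48. Cth, which makes cysteine from cystathionine, was at 70.05, 77.3 and 78.6 FPKM in the control libraries, 40.9, 28.9 and 45.9 in those of Taz KO and 9.74, 8.95 and 10.5 in those of double KO. The 3 groups did not overlap, and it was the one gene of this list called in all 3 comparisons (log2 fold change -2.89 in double KO and -0.98 in Taz KO against control, adjusted p = 2.42e-05 and 0.0226), though the Taz KO call did not hold in 5 of the 9 leave-one-out fits (highest adjusted p = 0.105 without control 2). Cbs, the enzyme one step before it, was at 15.4, 16.7 and 13.8 FPKM in the control libraries, 11.8, 9.08 and 12.3 in those of Taz KO and 5.002, 4.53 and 5.96 in those of double KO. Its 3 groups lay in the same order without overlap (log2 fold change -1.48, SE 0.14, adjusted p = 0.000285 in double KO). Psat1, a serine synthesis enzyme, was at 101, 90.95 and 103 FPKM in control against 43.4, 39.5 and 40.3 in double KO (log2 fold change -1.25, SE 0.13, adjusted p = 0.000417). Gpt2, a mitochondrial alanine aminotransferase on chromosome 8, was at 20.5, 20.7 and 24.6 and 10.5, 10.9 and 10.6, a mean of 48.7% of control (adjusted p = 0.000206). Also called were Psph, Phgdh, Chac1, Mthfd2, Shmt2, Eif2b5, Eif2b3 and Eif2b4, named after their values were seen. The call of Eif2b4 (adjusted p = 0.0492) was lost in 7 of the 9 leave-one-out fits (highest adjusted p = 0.152 without control 3), and also with a mean of at least 0.5 FPKM as the filter, with no filter and with no variance trend.

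ATF4 is 1 of 3 branches of the unfolded protein response, and the others, led by XBP1 and ATF6, act on chaperones and degradation factors of the endoplasmic reticulum (ER). Of 22 such genes 0 fell and 2 rose by limma in double KO against control, where 12.9% of all tested genes fell and 12.4% rose. Their median log2 fold change was -0.20, and 7 had an unadjusted p under 0.05, as did 39.5% of all tested genes. The rises were those of Edem1 (0.43, adjusted p = 0.0173), an ER degradation factor on chromosome 6, and Syvn1 (0.32, 0.0191), the ubiquitin ligase HRD1. Xbp1 was at -0.41 (0.0693, and 0.0388 with the replicate block) and Sel1l, the HRD1 adaptor, at 0.21 (0.0782, and 0.0354 with the block). With the block 11 of the 22 fell and 3 rose, where 28.1% of all tested genes fell and 24.2% rose. The calls of Edem1 and Syvn1 were each lost in 4 of the 9 leave-one-out fits (highest adjusted p = 0.0666 without control 1, and 0.0675 without control 3).

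**Figure D4:**
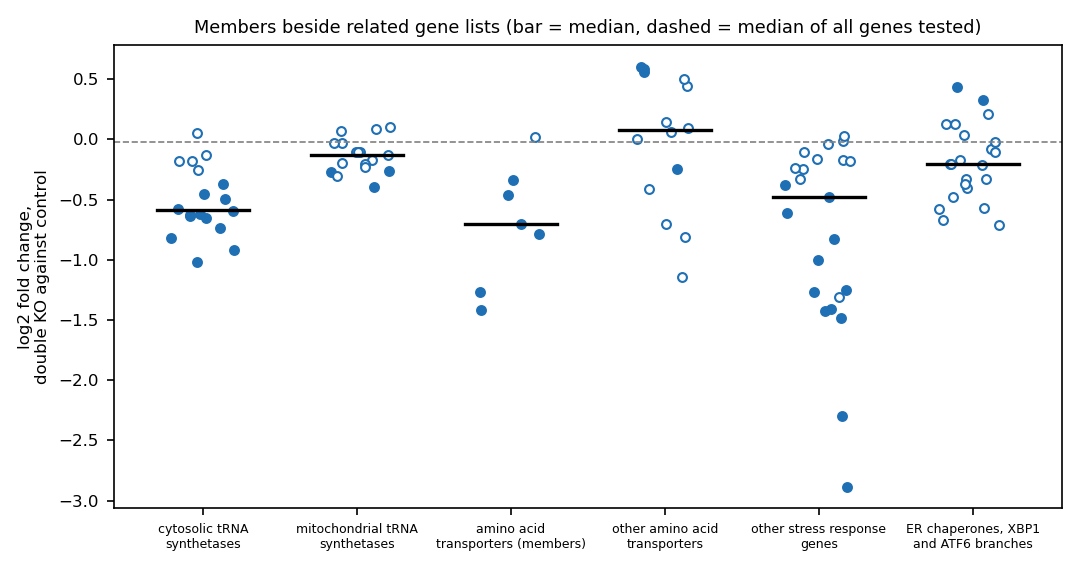
Log2 fold change of FPKM + 0.5 in double KO against control (vertical axis) for each tested gene of 2 member groups and 4 related lists, with filled points for an adjusted p under 0.05, black bars at list medians and a dashed line at the median of all tested genes. Cytosolic synthetases sit lower (median -0.59) than mitochondrial ones (-0.13). ER genes have 2 filled points, both above 0, though 16 of the 22 lie below 0 (median -0.20).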

How the data were processed

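The authors deposited 1 table of FPKM values, with a row for each gene and a column for each library. Tools named without roles in the submitters' processing notes are HTSeq 0.6.1, TopHat2 2.1.1 and DESeq2, and the build is mm10. Its annotation and strand setting were not given in the sources used here, so reads of overlapping or near-identical genes may be split. Every column belonged to a sample. Within each of the 24621 genes above 0, the deposited FPKM rose in equal steps, each worth 1 read (tolerance 0.001), which gave read counts of 19.1 to 24.0 M per library. A step varied between libraries inversely to their median-of-ratios size factors, so libraries were already on a scale set by the typical gene.

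Groups followed the titles. Genes averaging at least 1 FPKM over the 9 libraries (11674) were kept, and log2(FPKM + 0.5) was fitted with limma 3.58.1 (R 4.3.3), as group means over all 9 libraries with 6 residual degrees of freedom and a variance trend. Tests were two-sided, with Benjamini-Hochberg adjustment over all genes tested and a threshold of 0.05. The pseudocount understates fold changes of low genes. The steps were tested on simulated data with 200 changed genes. Replicates are not said to be separate cultures, so p-values measure only how these libraries scatter, which may be technical. No replicate pair agreed within sampling noise (chi-square of 5.79 to 53.4 per gene).

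Libraries with the same replicate number deviated together. Deviations from group means correlated at 0.192 to 0.711 in the 9 same-number pairs and -0.69 to 0.39 in the 18 others, so a fit with the number as a block is given where it changes a call. The pairing comes from these values, since the labels do not say what the number marks.

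Members and related lists were chosen with earlier results of these data known. Every member was named, and of each related list the 4 genes with the smallest adjusted p in double KO against control, plus other stress response genes called in all comparisons. Of these, 1 related gene and 1 promoter element are not reported here. Gene positions are from GENCODE M21 (GRCm38) and promoters from RefSeq (GRCm38.p6). Alternatives were other pseudocounts, filters, variance models, scalings, limma-voom on the recovered reads and leaving out libraries. Count tools such as DESeq2 were not run here on those reads.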

Additional observations from a re-analysis of the deposited data

How the results depend on the processing

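Of the 27 members called in double KO against control, 19 held in all 20 alternative settings, as did 9 of the 20 called between the knockout groups and 0 of the 1 called in Taz KO against control. No member called reversed its direction. Falls in double KO against control ranged from 21 to 27 over fits without 1 library, and rises from 1 to 1. Quantile normalization gave 2 rises there, Kars being the other, and 1 rise in each of the other comparisons. Taz KO against control gave 0 falls without a filter on low values and 0 with only its 2 groups in the fit, 8 falls and 3 rises with the replicate block, 2 falls and 1 rise without the 3 libraries numbered 2, and 0 to 2 falls and 0 to 0 rises without 1 library. Double KO against Taz KO gave 12 falls with only its 2 groups in the fit, 9 to 25 without 1 library, and 1 rise with the replicate block, 1 without the libraries numbered 2 and 1 with values rescaled to library totals. The last 2 settings were chosen after seeing the data. The share of all tested genes called moved with the setting as well. In double KO against control 12.9% fell in the fit used above, 28.1% with the replicate block and 22.5% without the libraries numbered 2. Scaling moved the median of all genes by less than 0.1 on the log2 scale. The replicate block changed no call of a member other than those printed beside the results above. The cause of these changes was not tested. Depth limits the low members, with Cebpb resting on 25 to 105 recovered reads per library and the untested Vldlr on 28 to 162.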

Other observations

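Amino acid transporters outside the members had no common direction in double KO against control. Of 20 listed, 14 were tested, and 3 rose and 1 fell, where 12.4% of all tested genes rose and 12.9% fell. The median log2 fold change of the 14 genes was 0.077. Slc38a7, which exports glutamine from lysosomes, was at 12.4, 12.9 and 13.3 FPKM in the control libraries, 16.9, 18.4 and 17.3 in those of Taz KO and 19.3, 19.9 and 20.3 in those of double KO. Both knockout groups lay above control (log2 fold change 0.61 and 0.43, adjusted p = 0.000568 and 0.0201). It lies on chromosome 8, where the median of tested genes was 0.30 and 0.35. Slc36a1, a proton-coupled transporter of lysosomes, rose by 0.58 on the log2 scale (adjusted p = 0.00697). The taurine transporter gene Slc6a6, on chromosome 6, rose by 0.56 (0.0173), while Slc38a10 was at -0.25 (0.0427). With the replicate block 5 rose and 5 fell, where 24.2% of all tested genes rose and 28.1% fell. Calls lost in fits without 1 library were those of Slc38a7 in Taz KO (6 of 9, highest adjusted p = 0.125 without control 1), Slc6a6 (3 of 9, 0.0626 without control 1) and Slc38a10 (8 of 9, 0.151 without control 1).

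Relatives of ATF4 in the ATF, C/EBP and NRF families were listed too. Of 13 listed, 8 were tested. In double KO against control, where 12.4% of all tested genes rose, 1 of the 8 rose. That was Nfe2l2, the oxidative stress factor NRF2 (log2 fold change 0.22, adjusted p = 0.0472), a call that did not hold in 8 of the 9 leave-one-out fits (highest adjusted p = 0.172 without control 1). Its relative Nfe2l1 was at -0.19 (0.0581, and 0.00916 with the replicate block), Atf2 at 0.17 (0.0952, and 0.0434 with the block) and Atf6b at -0.37 (0.132, and 0.00756 with the block). With the block 2 rose and 3 fell, where 24.2% of all tested genes rose and 28.1% fell.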
